A study of Mus musculus with 18 samples.

Results

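The genes described here are 10 antiviral genes that type I interferon and IFNγ can both induce, namely Ifit1, Ifit2, Ifit3, Isg15, Usp18, Rsad2, Ifih1, Ddx58 (also written Rigi), Oasl2 and Rnf213. They were chosen by name, with earlier results of these data known. Each symbol matched 1 of the 43629 mouse gene identifiers in the count table. So all 10 were found, and all 10 had enough counts to be tested. Their levels were measured by QuantSeq, a 3′ mRNA-sequencing method in which each transcript is read near its end, in 18 libraries of AT3 cells. AT3 is a mouse mammary carcinoma line that serves in the study as a model of triple-negative breast cancer, so all values describe 1 line in culture. The 6 conditions held 3 libraries each and were DMSO, A-241 (250 nM), A-485 (1000 nM), IFNγ (IFNy in the labels and plots), IFNy+A-241 and IFNy+A-485. Cells received DMSO or an inhibitor for 1 h and then IFNγ or its vehicle for 2 h, which makes 3 h in all, and the cells without an inhibitor carried the DMSO vehicle. A-241 and A-485 are chemically distinct inhibitors of the catalytic domain of P300 and CBP, the acetyltransferases that mark active enhancers. They were given at different doses, so a difference between them is one between these treatments and not between the compounds at a matched dose.

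Interferons warn cells of infection. Type I interferons act through their own receptor, which activates the transcription factor complex ISGF3, and ISGF3 binds the interferon-stimulated response element (ISRE) in front of antiviral genes. IFNγ acts through another receptor, whose signal reaches gamma-activated sites (GAS) and induces the transcription factor IRF1, a protein that can itself bind ISRE sequences. The products of the 10 genes include proteins that bind or sense viral RNA, an enzyme that makes a nucleotide that stops viral polymerases, a ubiquitin-like modifier with the protease that removes it, and a ubiquitin ligase.

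Between 3417167 and 7856830 counts were obtained per library, and levels are given in CPM, which are counts brought to a common library size with TMM factors. DMSO replicate 3 and IFNγ replicate 2 stood apart from the other libraries of their conditions, with a root mean square deviation (log2) of 0.731 and 0.755, where the other 16 libraries had 0.226 to 0.512, and the transcript Gm42418 took 20.1% and 23.0% of their counts against 7.11% to 16.2% elsewhere. Of 8 mammary epithelial markers, 7 or 8 were detected in every library, with a summed level of 1647 to 2015 CPM with DMSO, 1067 to 1106 with A-241, 1205 to 1306 with A-485, 1447 to 1691 with IFNγ, 1050 to 1205 with IFNy+A-241 and 1121 to 1273 with IFNy+A-485, and the part of this difference in the results below was not tested. Differences were tested with the quasi-likelihood F-test of edgeR over all 18 libraries, with Benjamini-Hochberg adjustment across the 11964 genes tested. Genes with an adjusted p below 0.01 are referred to as called, and differences are log2 fold changes with their standard error (SE). The study's methods speak of technical triplicates and its labels of biological ones, so these p values measure the spread between libraries, which may be technical. In bulk RNA a lower level in each cell and fewer cells with the transcript cannot be told apart.

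The promoters of the 10 genes were examined first, because ISRE and GAS sequences are the sites through which interferons act on them. RefSeq on the GRCm38.p6 build gave a promoter, from 250 bases before to 50 bases after the start site, for 9 of the 10 genes, with 2 windows for Ifit2 and 1 for each of the others, Usp18 being the one without an entry. A gene was counted when any of its windows held a match. The core of the ISRE, which is GAAA, any 2 bases and GAAA again on either strand, was found in 6 of these 9 genes, against 3.99% of the 27025 genes with a promoter entry of the same length. The stretches that hold it follow, written on the strand of the gene, with each match in capitals, so that a match on the opposite strand reads TTTC, any 2 bases and TTTC.
Ifit1: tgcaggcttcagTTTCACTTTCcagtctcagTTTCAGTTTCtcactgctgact
Ifit3: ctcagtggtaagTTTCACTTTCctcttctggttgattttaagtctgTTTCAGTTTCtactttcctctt
Isg15: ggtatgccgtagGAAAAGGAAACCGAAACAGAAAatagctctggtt
Rsad2: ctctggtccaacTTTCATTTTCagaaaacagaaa
Ifih1: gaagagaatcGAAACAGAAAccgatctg
Ddx58: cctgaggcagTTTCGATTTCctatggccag

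The stretch of Ifit1 lies at chr19:34640773-34640825 on the plus strand and holds 2 matches, and that of Ifit3 at chr19:34583361-34583428 on the plus strand also holds 2. The matches of these 2 genes are the same pair of sequences in the same order, at -104 to -95 and -85 to -76 from the start site in Ifit1 and at -156 to -147 and -122 to -113 in Ifit3. The stretch of Isg15 at chr4:156200863-156200908 on the minus strand holds 3 matches that overlap one another. Rsad2 has 1 match in chr12:26456551-26456584 on the minus strand. In Ifih1 (chr2:62646206-62646233, minus strand) and Ddx58 (chr4:40239804-40239833, minus strand) the match lies after the annotated start site, at bases 33 to 42 and 3 to 12. The GAS sequence TTCNNNGAA, which reads in both directions, was found in 1 of the 9 genes, near the far end of 1 of the 2 windows of Ifit2, and in 9.55% of the 27025 genes. Ifit2, Oasl2 and Rnf213 held no match to the ISRE core in these windows, which says only that these letters are not there. The window of Rnf213 (chr11:119389849-119390148) ends before the gene start given below, 119393100, which comes from another annotation. The sequence at that start was not searched. Of the genes typical of the IFNγ response, 9 of 16 held the ISRE core and 7 of 16 the GAS sequence, and of the other antiviral effectors 14 of 26 and 7 of 26 did.

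**Figure D1:**
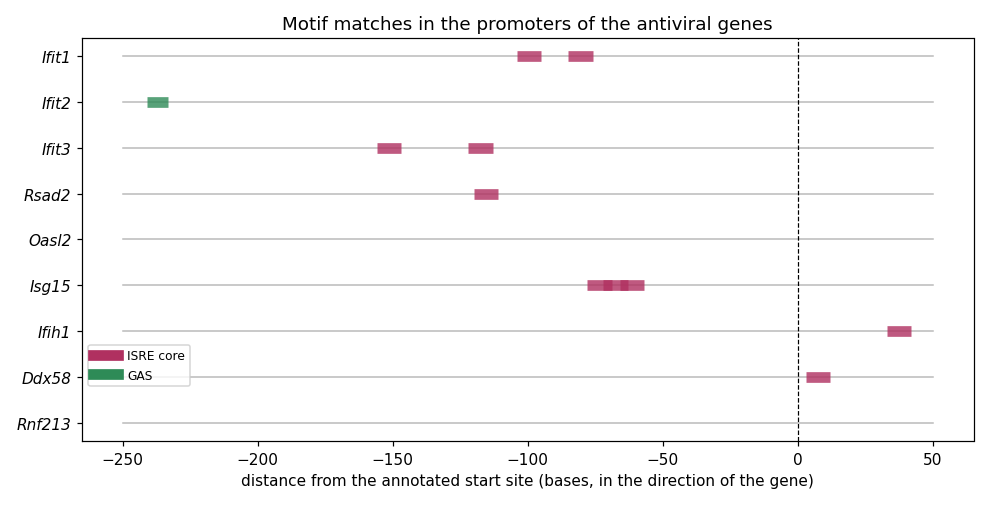
Positions of matches to the ISRE core and to the GAS sequence in the promoters of the 9 genes with a RefSeq entry. The x axis is the distance from the start site in bases, the grey line is the window searched and a block is 1 match. Ifit1, Ifit3, Isg15 and Rsad2 have their matches before the start site, and Ddx58 and Ifih1 after it. Oasl2 and Rnf213 have none, and the window of Rnf213 ends before the gene start given in the text.

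The first comparison asked how these genes respond to IFNγ alone. Of the 10 genes, 8 were called higher with IFNγ than with DMSO, whereas 1.2% of all genes tested were called higher and 0.1% lower. All 10 had every IFNγ library above every DMSO library, a separation that 4.16% of all genes tested showed. The median log2 fold change of the 10 genes was 1.81, against -0.00 over all genes tested, and without DMSO replicate 3 and IFNγ replicate 2 the count was also 8. The changes ranged from 0.93 for Ddx58 to 5.01 for Ifit3, so the group was not uniform in size. When only the groups compared were fitted, which leaves fewer libraries, Ifit1 and Ifit3 alone were called.

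The Ifit genes encode proteins with tetratricopeptide repeats that bind RNA or bind each other, and all 3 lie in 1 cluster on chromosome 19. In GRCm38 Ifit2 (ENSMUSG00000045932) runs from 34550694 to 34576419, Ifit3 (ENSMUSG00000074896) from 34583531 to 34588731 and Ifit1 (ENSMUSG00000034459) from 34640871 to 34650009, each on the plus strand. Ifit1, which binds viral RNA whose cap lacks the host's methyl marks, was at 1.89, 2.99 and 3.10 CPM in DMSO replicates 1, 2 and 3 and at 51.8, 48.1 and 48.5 CPM with IFNγ. The IFNγ libraries were close to one another, and their difference from DMSO was 4.22 ± 0.22 (SE, log2) with an edgeR adjusted p of 6.73e-09. Ifit3, a relative of Ifit1 in the same family, was at 2.52, 2.68 and 1.38 CPM in DMSO and at 57.3, 92.7 and 74.7 CPM with IFNγ. It rose the most of the 10 genes, by 5.01 ± 0.42 (edgeR adjusted p = 1.08e-06). A share of 9.86% of the 75-base windows near the end of its transcripts also occurs in the neighbouring paralog Ifit3b. Reads from these windows cannot be told apart by sequence, and how they were counted was not tested. Ifit3b itself rose by 4.71 ± 0.41 (edgeR adjusted p = 1.45e-06). Ifit2, which also binds RNA and has been tied to translation control, was at 8.62, 6.14 and 9.31 CPM in DMSO and at 22.6, 38.3 and 29.1 CPM with IFNγ. It rose by 1.91 ± 0.27 (edgeR adjusted p = 0.000387), the smallest change of the Ifit genes.

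Rsad2 encodes viperin, an enzyme that turns CTP into a nucleotide that stops viral polymerases. Its gene (ENSMUSG00000020641) lies on the minus strand of chromosome 12 from 26442746 to 26456452. Its level was 6.31, 7.25 and 1.72 CPM in DMSO and 36.9, 28.5 and 29.3 CPM with IFNγ. The DMSO libraries were uneven, since replicate 3, which stood apart over all genes, held only 5 counts of it, and the difference was 2.55 ± 0.35 (edgeR adjusted p = 0.000361). Oasl2, a member of the oligoadenylate synthetase family of RNA sensors (ENSMUSG00000029561, chromosome 5 from 114896936 to 114912234, plus strand), was at 3.15, 3.31 and 2.41 CPM in DMSO and at 26.7, 21.1 and 21.8 CPM with IFNγ. It rose by 2.94 ± 0.24 (edgeR adjusted p = 8.06e-07). Rnf213, a very large ubiquitin ligase that acts against intracellular microbes (ENSMUSG00000070327, chromosome 11 from 119393100 to 119487418, plus strand), was at 12.8, 12.1 and 22.1 CPM in DMSO and at 46.4, 65.4 and 39.1 CPM with IFNγ. It rose by 1.70 ± 0.25 (edgeR adjusted p = 0.000708). Of its exon bases, 1476 overlap with the transcript A930037H05Rik of the opposite strand, which has no entry in the count table. Usp18, described next, overlaps in the same way with Gm44148 over 124 bases.

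Isg15 is the ubiquitin-like protein that is attached to other proteins during an antiviral response, and Usp18 is the protease that takes it off and that also dampens signalling from the type I interferon receptor. Isg15 (ENSMUSG00000035692, chromosome 4 from 156199424 to 156200818, minus strand) was at 65.8, 159 and 99.6 CPM in DMSO and at 480, 214 and 329 CPM with IFNγ. Its libraries were the most uneven of the 10 genes in the IFNγ condition, with a log2 SD of 0.58, and the difference of 1.65 ± 0.38 was not called (edgeR adjusted p = 0.0338). Without IFNγ replicate 2 it was 1.90 and was called (edgeR adjusted p = 0.00947). Usp18 (ENSMUSG00000030107, chromosome 6 from 121245906 to 121270917, plus strand) was at 9.46, 9.45 and 11.7 CPM in DMSO and at 23.2, 27.0 and 22.2 CPM with IFNγ. All IFNγ libraries lay above all DMSO libraries, yet the difference of 1.25 ± 0.27 missed the threshold (edgeR adjusted p = 0.0173).

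Ifih1 encodes MDA5 and Ddx58 encodes RIG-I, the helicases that sense viral RNA in the cytoplasm. Ifih1 (ENSMUSG00000026896, chromosome 2 from 62595798 to 62646255, minus strand) was at 10.9, 9.77 and 10.7 CPM in DMSO and at 21.6, 18.7 and 22.7 CPM with IFNγ. Ddx58 (ENSMUSG00000040296, chromosome 4 from 40203773 to 40239828, minus strand) was at 45.0, 33.9 and 35.9 CPM in DMSO and at 58.7, 90.7 and 70.3 CPM with IFNγ. Both rose, by 1.01 ± 0.16 for Ifih1 (edgeR adjusted p = 0.00115) and by 0.93 ± 0.16 for Ddx58 (edgeR adjusted p = 0.00326). These were the smallest changes of the 10 genes, and both calls depended on single libraries. Without DMSO replicate 2, Ifih1 was 0.96 higher and Ddx58 0.85 higher, with an edgeR adjusted p of 0.0118 and 0.0276, and Ddx58 was also not called without DMSO replicate 3 (0.91, edgeR adjusted p = 0.0114) or without IFNγ replicate 3 (0.96, edgeR adjusted p = 0.0106).

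**Figure D2:**
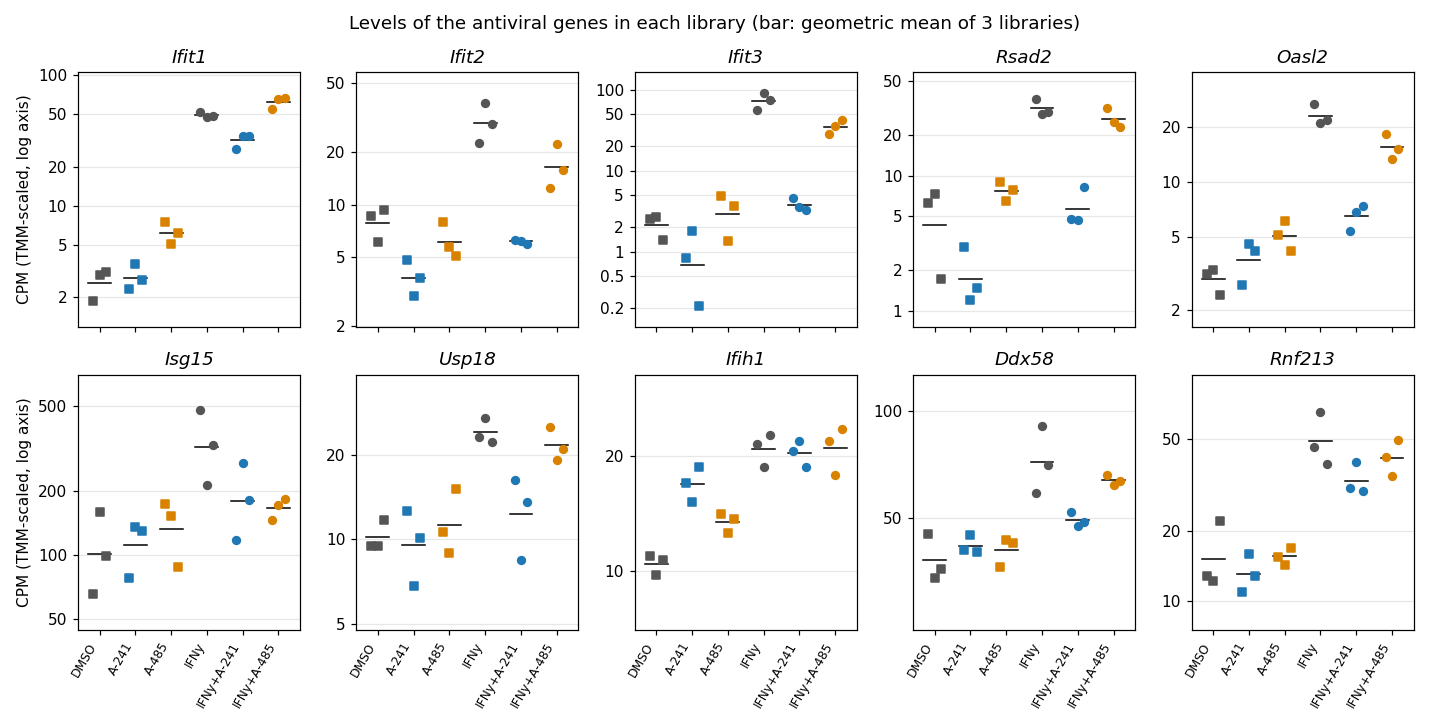
Levels of the 10 genes in each of the 18 libraries, in CPM on a log axis that differs between panels. Squares are libraries without and circles libraries with IFNγ, the colour gives the inhibitor (grey for none, blue for A-241, orange for A-485), and the black bar is the geometric mean of 3 libraries. With IFNγ and A-241, Ifit3 lies between 3.29 and 4.56 CPM while Ifit1 lies between 27.4 and 34.5 CPM, and Ifih1 is near 20.4 CPM on average.

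The second question was how the inhibitors act on these genes in resting cells. With A-241 against DMSO, 0 of the 10 genes were called in either direction by edgeR, and 4 had an unadjusted p under 0.05, whereas 0.827% of all genes tested were called higher, 3.53% were called lower and 23.3% had an unadjusted p under 0.05. Rsad2 was at 2.94, 1.20 and 1.47 CPM with A-241, a difference of -1.52 ± 0.43 from DMSO (edgeR adjusted p = 0.0357). The DMSO library with 1.72 CPM lay among those values, and without DMSO replicate 3 the difference was -1.85 with an edgeR adjusted p of 0.00348, which passes the threshold. Ifit2 was at 4.83, 3.00 and 3.78 CPM with A-241, below all 3 DMSO libraries as 13.4% of all genes tested were, and its difference of -1.03 ± 0.30 was not called (edgeR adjusted p = 0.0399). Ifit3 was at 0.839, 1.80 and 0.210 CPM, which are 4, 9 and 1 counts, too few for a firm estimate (-1.24 ± 0.57, edgeR adjusted p = 0.20). Ifih1 lay on the other side. It was at 17.0, 15.2 and 18.7 CPM with A-241, above every DMSO library as 13.3% of all genes tested were, and its difference of 0.70 ± 0.16 lay just outside the threshold (edgeR adjusted p = 0.0104). The remaining 6 genes differed from DMSO by between -0.22 and 0.35, and their libraries overlapped.

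With A-485 against DMSO, 1 of the 10 genes was called higher and 0 were called lower by edgeR, whereas 0.0418% of all genes tested were called higher and 0.619% lower. The gene was Ifit1, at 7.57, 5.14 and 6.26 CPM with A-485, which are 43, 27 and 27 counts. All 3 libraries lay above all DMSO libraries, and the difference was 1.25 ± 0.23 (edgeR adjusted p = 0.00975). This call was lost whichever of the 6 libraries was left out. The difference then ranged from 1.06 to 1.39, and the edgeR adjusted p was 0.0556, 0.0197 and 0.0147 without DMSO replicates 1, 2 and 3 and 0.0705, 0.0177 and 0.0277 without A-485 replicates 1, 2 and 3. Leukocyte markers were also higher in some of these libraries. The summed level of 9 such markers was 40.5, 13.3 and 36.9 CPM in A-485 replicates 1, 2 and 3 and 6.52, 4.88 and 20.7 CPM in the DMSO libraries (36.0 in IFNγ replicate 2 and 30.9 in IFNy+A-241 replicate 3), with 3 to 6 of the 9 detected in a library. In the A-485 libraries most of it came from Lyz2, with 178, 48 and 72 counts against 21, 4 and 39 in DMSO, and from Ptprc, with 37, 1 and 73 counts against 2, 6 and 4. Cd68 and Itgam were also detected, Cd3e had at most 6 counts in a library, and Adgre1, Ncr1 and Siglech had 0 counts in all 18. The part of leukocyte RNA in the Ifit1 level was not tested. Oasl2 was at 5.11, 6.09 and 4.17 CPM with A-485, above all DMSO libraries, and was not called (0.76 ± 0.25, edgeR adjusted p = 0.172). Ifih1 was also above all DMSO libraries, at 14.1, 12.6 and 13.7 CPM, and was not called either (0.36 ± 0.16, edgeR adjusted p = 0.364). The libraries of the remaining 7 genes overlapped with DMSO, and their differences ran from -0.33 for Ifit2 to 0.53 for Ifit3 and Rsad2. Libraries that do not overlap in this direction were found for 3 of the 10 genes and for 7.07% of all genes tested.

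Compared with each other in resting cells, 0 of the 10 genes were called by edgeR between A-241 (250 nM) and A-485 (1000 nM), and 5 had an unadjusted p under 0.05. Of all genes tested 0.351% were called lower with A-241, 0.0167% were called higher and 8.16% had an unadjusted p under 0.05. The libraries of 3 of the 10 genes were all lower with A-241 and those of 1, Ifih1, all higher, against 11.3% and 11.2% of all genes tested. Rsad2 was at 8.98, 6.47 and 7.88 CPM with A-485, above all libraries with A-241, a difference of -2.05 (95% interval -2.93 to -1.16, edgeR adjusted p = 0.0250). Ifit1 differed by -1.13 (-1.61 to -0.64, edgeR adjusted p = 0.0246), again without overlap of the libraries. The third gene was Ifit2, with -0.70 (-1.33 to -0.07, edgeR adjusted p = 0.535), and for Ddx58 the difference was 0.04 (-0.30 to 0.39). Ifit3 differed by -1.77 (-2.90 to -0.64, edgeR adjusted p = 0.196) on few counts, Ifih1 by 0.33 (0.00 to 0.66), and Isg15, Usp18, Oasl2 and Rnf213 by -0.42 to -0.22 with overlapping libraries.

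The third comparison asked how the levels under IFNγ differed when P300/CBP was inhibited. Such a difference also holds any effect that the inhibitor has without IFNγ, and the response itself is given further below. With A-241, 4 of the 10 genes were called lower than with IFNγ alone, whereas 3.54% of all genes tested were called lower and 0.543% higher. The genes were Ifit3, Rsad2, Ifit2 and Oasl2. The median log2 fold change of the 10 genes was -0.88, against -0.02 over all genes tested, and 7 of the 10 had all libraries with A-241 below all libraries with IFNγ alone, as 12.1% of all genes tested did. Without DMSO replicate 3 and IFNγ replicate 2, 5 genes were called, the fifth being Ifit1 with -0.66 (edgeR adjusted p = 0.00812).

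Ifit3 was at 4.56, 3.58 and 3.29 CPM with IFNγ and A-241. These libraries lay far below the 57.3 to 92.7 CPM of IFNγ alone, a difference of -4.29 ± 0.40 (edgeR adjusted p = 3.51e-06), the largest of the 10 genes. The paralog Ifit3b, which shares some of its sequence, was also lower, by a difference of -3.47 ± 0.36 (edgeR adjusted p = 1.25e-05). Rsad2 was at 4.78, 4.72 and 8.23 CPM, within or just above the range of the DMSO libraries, and fell by 2.42 (SE 0.35, edgeR adjusted p = 0.000262). Ifit2 was at 6.30, 6.18 and 5.97 CPM, close to the lowest DMSO library, and fell by 2.27 (SE 0.27, edgeR adjusted p = 4.38e-05). Oasl2 was at 5.43, 6.83 and 7.41 CPM, still above the DMSO libraries, and fell by 1.82 (SE 0.22, edgeR adjusted p = 4.35e-05). Without IFNγ, A-241 differed from DMSO by -1.24 for Ifit3, -1.52 for Rsad2, -1.03 for Ifit2 and 0.35 for Oasl2, none called.

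Ifit1, by contrast, stayed high. It was at 27.4, 34.5 and 34.2 CPM with IFNγ and A-241. The 3 libraries were below the 48.1 to 51.8 CPM of IFNγ alone, with a difference of -0.63 ± 0.18 that was not called (edgeR adjusted p = 0.0395). They lay above every library without IFNγ, the highest of which was at 7.57 CPM.

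Usp18 was at 16.3, 8.46 and 13.6 CPM with both agents, below the IFNγ libraries but not called (-0.92 ± 0.26, edgeR adjusted p = 0.0381). Ddx58 was at 52.1, 47.5 and 48.8 CPM and was not called either (-0.56 ± 0.16, edgeR adjusted p = 0.0429). Ddx58 lay between the DMSO and the IFNγ libraries, whereas Usp18 overlapped with DMSO. Isg15, at 119, 271 and 183 CPM, and Rnf213, at 30.6, 39.7 and 29.8 CPM, overlapped with the IFNγ libraries, and their differences were -0.84 ± 0.38 (edgeR adjusted p = 0.218) and -0.58 ± 0.24 (edgeR adjusted p = 0.175). Ifih1 showed the smallest difference. It was at 20.6, 22.0 and 18.7 CPM, and the difference from IFNγ alone was -0.04 with a 95% interval of -0.36 to 0.28. A-241 without IFNγ was already 0.70 ± 0.16 above DMSO for this gene. Its response to IFNγ was 0.27 ± 0.15 with A-241 (not called) and 1.01 ± 0.16 without an inhibitor.

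With A-485, 0 of the 10 genes were called in either direction against IFNγ alone by edgeR, and 4 had an unadjusted p under 0.05, while 0.535% of all genes tested were called lower, 0.0167% were called higher and 14.7% had an unadjusted p under 0.05. All libraries were lower than with IFNγ alone for 4 of the 10 genes and higher for 1, against 10% and 10.6% of all genes tested. Ifit3 was at 28.6, 35.6 and 42.5 CPM with IFNγ and A-485, below all libraries of IFNγ alone, with a difference of -1.07 ± 0.33 (edgeR adjusted p = 0.124). Ifit2 was at 12.4, 22.4 and 15.9 CPM, also below all of them, with a difference of -0.82 ± 0.25 (edgeR adjusted p = 0.122). Ifit1 lay on the other side, at 55.4, 65.4 and 66.3 CPM, above all libraries of IFNγ alone (0.33 ± 0.18, edgeR adjusted p = 0.388). Isg15 was at 146, 172 and 183 CPM, below all IFNγ libraries, and its difference of -1.03 ± 0.38 was not called (edgeR adjusted p = 0.209). Rsad2 was at 31.7, 25.0 and 22.9 CPM, which overlaps with IFNγ alone, with a difference of -0.26 (95% interval -0.92 to 0.41). Oasl2, at 18.3, 13.4 and 15.2 CPM, was below all IFNγ libraries (-0.57 ± 0.20, edgeR adjusted p = 0.194). Usp18, at 25.2, 19.1 and 21.0 CPM, Ddx58, at 66.3, 61.8 and 63.5 CPM, Rnf213, at 41.8, 34.5 and 49.7 CPM, and Ifih1, at 22.0, 17.9 and 23.5 CPM, all overlapped with IFNγ alone. Their differences were -0.14 (-0.68 to 0.39), -0.19 (-0.53 to 0.15), -0.25 (-0.76 to 0.25) and 0.00 (-0.32 to 0.32). Both inhibitors were compared with the same IFNγ libraries, so these 2 sets of values are not independent of each other.

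**Figure D3:**
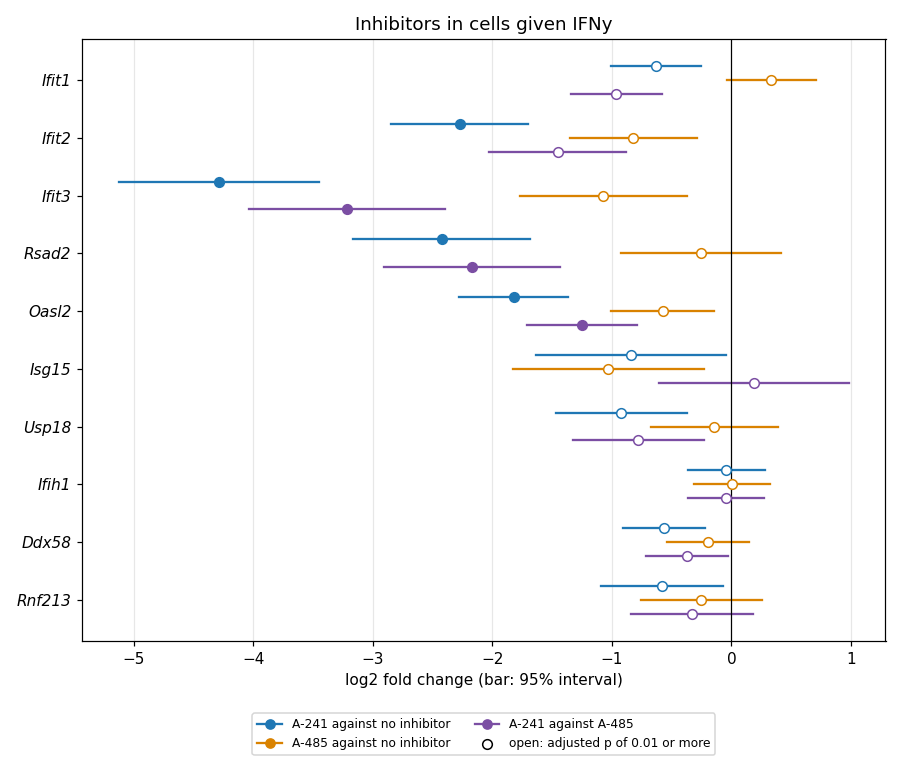
Log2 fold changes of the 10 genes in cells given IFNγ, with A-241 (blue) or A-485 (orange) against no inhibitor and with A-241 against A-485 (purple). Bars are 95% intervals and filled points have an edgeR adjusted p under 0.01. Ifit3 lies at -4.29 for A-241 and at -1.07 for A-485. All 3 intervals of Ifih1 include 0.

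Compared directly under IFNγ, 3 of the 10 genes were called lower with A-241 (250 nM) than with A-485 (1000 nM). Of all genes tested, 0.51% were called lower and 0.00836% higher. The 3 genes were Ifit3 with a difference of -3.22 ± 0.39 (edgeR adjusted p = 0.000347), Rsad2 with -2.17 ± 0.35 (edgeR adjusted p = 0.00298) and Oasl2 with -1.25 ± 0.22 (edgeR adjusted p = 0.00616). None of the A-485 libraries of these 3 genes reached down to those with A-241. Of these 3 calls, that of Ifit3 alone held whichever of the 6 libraries was left out. Without any 1 of the 6 libraries the difference of Rsad2 was between -2.46 and -2.02 and that of Oasl2 between -1.35 and -1.12, with an edgeR adjusted p of up to 0.0369 and up to 0.0571, so that 1 gene was called in each case. In 7 of the 10 genes all libraries with A-241 were below all libraries with A-485, as in 11.8% of all genes tested. Ifit1 and Ifit2 lay just outside the threshold, with -0.96 ± 0.18 (edgeR adjusted p = 0.0106) and -1.45 ± 0.27 (edgeR adjusted p = 0.0110). Usp18 (-0.78 ± 0.26, edgeR adjusted p = 0.335) and Ddx58 (-0.37 ± 0.16, edgeR adjusted p = 0.674) were lower in all libraries but not called. For Isg15, Ifih1 and Rnf213 the differences were 0.19 (95% interval -0.60 to 0.98), -0.05 (-0.37 to 0.27) and -0.33 (-0.84 to 0.18). All of these are differences in level under IFNγ, not in the response to it. Without IFNγ the differences of Ifit3, Rsad2, Oasl2 and Ifit1 were -1.77, -2.05, -0.42 and -1.13. The responses of these genes differed between the inhibitors by -1.45 (95% interval -2.95 to 0.05), -0.12 (-1.39 to 1.15), -0.83 (-1.53 to -0.14) and 0.17 (-0.43 to 0.76), none called.

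The response to IFNγ in the presence of an inhibitor was also measured against the inhibitor alone. With A-241, 1 of the 10 genes was called higher with IFNγ, Ifit1, whereas 0.192% of all genes tested were called higher and 0% lower. It rose by 3.46 ± 0.22 (edgeR adjusted p = 1.75e-07). The next largest differences were those of Rsad2 with 1.65 ± 0.43 (edgeR adjusted p = 0.223), Ifit3 with 1.96 ± 0.52 (edgeR adjusted p = 0.260) and Rnf213 with 1.33 ± 0.25 (edgeR adjusted p = 0.0266), none of which was called. The remaining 6 genes differed by 0.24 to 0.77. In 8 of the 10 genes all libraries with IFNγ and A-241 were above all libraries with A-241 alone, as in 6.08% of all genes tested. With A-485, 5 of the 10 genes were called higher with IFNγ, whereas 0.744% of all genes tested were called higher and 0.0585% lower. In 9 of the 10 genes the libraries did not overlap, as in 9.49% of all genes tested. The genes called were Ifit3 (3.41 ± 0.39), Ifit1 (3.29 ± 0.20), Oasl2 (1.60 ± 0.22), Rnf213 (1.43 ± 0.25) and Ifit2 (1.42 ± 0.27), with an edgeR adjusted p between 4.78e-08 and 0.00973, and Rsad2 lay just outside with 1.77 ± 0.34 (edgeR adjusted p = 0.0105). Usp18 (0.92), Ifih1 (0.65), Ddx58 (0.65) and Isg15 (0.27) were not called. Of the genes called, Ifit2 and Rnf213 were each no longer called without any one of A-485 replicates 1, 2 and 3, with a change of 1.30 to 1.64 for Ifit2 and of 1.37 to 1.49 for Rnf213 and an edgeR adjusted p of up to 0.0721 and up to 0.0439. The same held without IFNy+A-485 replicate 3 for Ifit2 (1.46, edgeR adjusted p = 0.0309) and Rnf213 (1.29, edgeR adjusted p = 0.0332), without replicate 2 for Ifit2 (1.17, edgeR adjusted p = 0.0686) and without replicate 1 for Rnf213 (1.44, edgeR adjusted p = 0.0195).

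**Figure D4:**
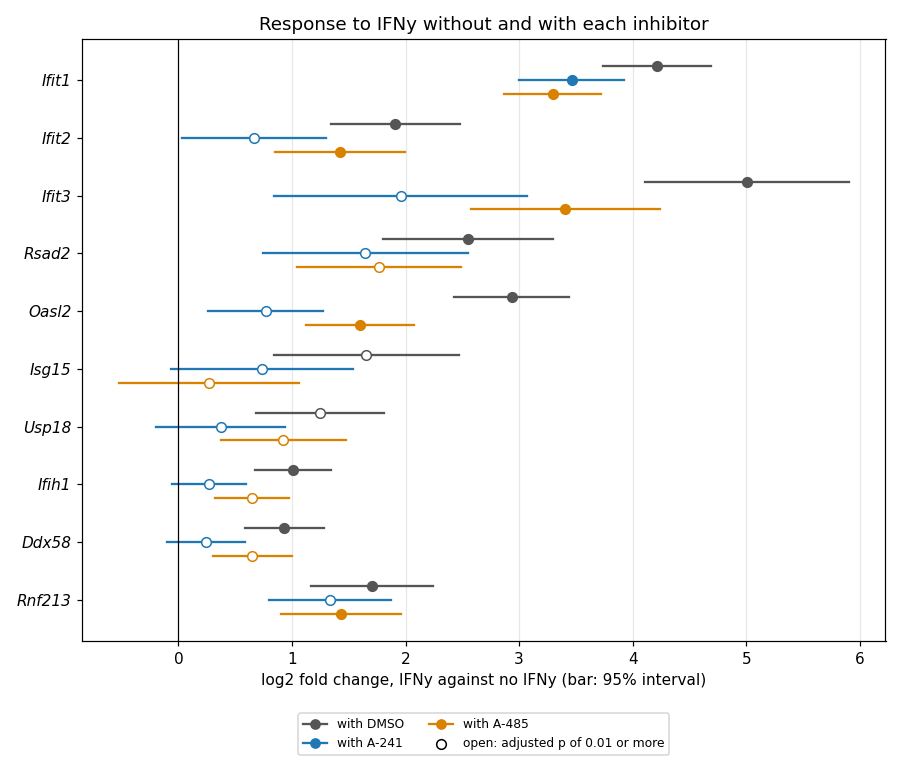
Log2 fold changes of the 10 genes with IFNγ against no IFNγ, in cells with DMSO (grey), A-241 (blue) or A-485 (orange). Bars are 95% intervals and filled points have an edgeR adjusted p under 0.01. Ifit1 responds by 4.22, 3.46 and 3.29, whereas Ifit3 responds by 5.01, 1.96 and 3.41.

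Whether an inhibitor changed the response was tested as an interaction, the response with the inhibitor minus that without it. No gene of the 10 was called by edgeR for A-241 (0 called, 7 at an unadjusted p under 0.05), and of all genes tested 0.0334% were called and 3.36% had an unadjusted p under 0.05. Oasl2 came closest, with -2.17 ± 0.34 (edgeR adjusted p = 0.0177), and Ifit3 had the largest value, -3.05 ± 0.74 (edgeR adjusted p = 0.210), with a wide error and 1 to 9 counts in the A-241 libraries. Without DMSO replicate 3 and IFNγ replicate 2, Oasl2 was called (edgeR adjusted p = 0.00943). For Ifit1 the interaction was -0.75 (95% interval -1.41 to -0.09) and for Ifih1 -0.74 (-1.21 to -0.28). Ifit2 (-1.24), Usp18 (-0.88) and Ddx58 (-0.69) were the others at an unadjusted p under 0.05. Rsad2 was not among them, with -0.90 (-2.11 to 0.30). For A-485, 0 of the 10 genes were called (4 at an unadjusted p under 0.05), and of all genes tested 0% were called and 4.17% had an unadjusted p under 0.05. Oasl2 again had the smallest adjusted p of the 10 genes, with -1.34 ± 0.33 (edgeR adjusted p = 0.444). The others at an unadjusted p under 0.05 were Ifit1 (-0.92, 95% interval -1.54 to -0.30), Ifit3 (-1.60) and Isg15 (-1.39). The interaction was below 0 for all 10 genes with each inhibitor. Of the 11964 genes tested, 6308 (A-241) and 6166 (A-485) were below 0. The difference between the responses under the 2 inhibitors was called for 0 of the 10 genes by edgeR (1 at an unadjusted p under 0.05, Oasl2 with -0.83 ± 0.33) and for 0% of all genes tested, 2.32% of which had an unadjusted p under 0.05, so that a response called with one inhibitor and not with the other is not shown to differ between them.

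Since Ifit1 and Ifit3 lie in 1 cluster and hold the same pair of ISRE matches, their counts were compared within each library, a ratio that no scaling between libraries can alter and that was chosen after the values were seen. With IFNγ alone there were 1.11, 1.93 and 1.54 counts of Ifit3 for each count of Ifit1. With A-241 added there were 0.167, 0.104 and 0.0964, and with A-485 added 0.517, 0.543 and 0.640. None of the 3 conditions overlapped with another, but how often other pairs of genes separate in this way was not measured. The ratio restates the differences of Ifit3 and Ifit1 given above and adds no separate support to them. The mean log2 ratio differed from that of IFNγ alone by -3.65 (A-241 added) and by -1.40 (A-485 added), and an exact two-sided permutation test gave p = 0.10 for each, the smallest that 3 against 3 libraries allow (adjusted over 8 comparisons, 0.133). The 2 inhibitor conditions differed by -2.25 with the same exact permutation p. For Ifit2 and Ifit1 the ratio was 0.436, 0.796 and 0.601 with IFNγ, 0.230, 0.179 and 0.175 with A-241 added and 0.224, 0.342 and 0.240 with A-485 added. The last 2 conditions overlapped (exact permutation p = 0.20). In resting cells the ratios rested on few counts of Ifit1, between 9 and 43 in a library.

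**Figure D5:**
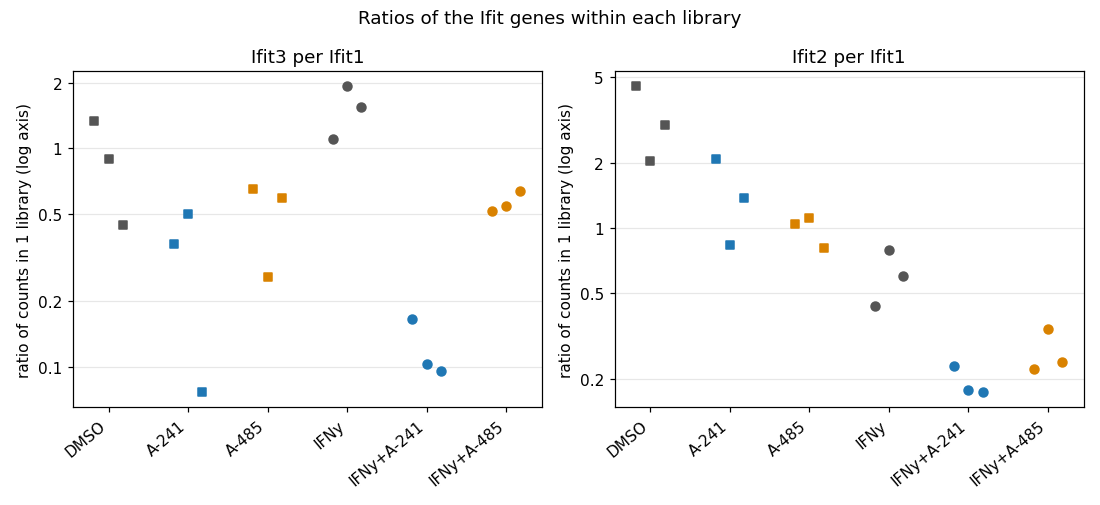
Counts of Ifit3 (left) and Ifit2 (right) for each count of Ifit1 in the same library, on a log axis, by condition. Each point is 1 of 18 libraries, squares without and circles with IFNγ. The 3 libraries with IFNγ and A-241 have 0.0964 to 0.167 counts of Ifit3 for each of Ifit1, below the 1.11 to 1.93 of IFNγ alone.

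The rest of the pathway was described from lists of genes. Of the components of type I interferon signalling, 12 of the 15 listed were tested. With IFNγ 5 were called higher and 0 lower, and the median change of the 12 was 1.20. Stat2, which encodes a subunit of ISGF3, rose by 2.50 ± 0.23 (edgeR adjusted p = 2.45e-06), while Irf9, which encodes its DNA-binding subunit, was not called (0.60 ± 0.23, edgeR adjusted p = 0.403). Irf1 rose by 5.05 ± 0.31 (edgeR adjusted p = 3.52e-08). Socs1, an inhibitor of JAK kinases, was also called, but IFNγ replicate 2 held 4 of its counts where replicates 1 and 3 held 511 and 320. Irf7, which amplifies type I interferon, was not called (1.19 ± 0.26, edgeR adjusted p = 0.0183). The interferon genes Ifnb1, Ifna2 and Ifna4 had 0 counts in all 18 libraries. By total counts without TMM factors, this allows up to 0.382 to 0.878 CPM depending on the library. With A-241 added to IFNγ, Stat2 was lower (-1.05 ± 0.21, edgeR adjusted p = 0.00413). Irf1 was not called (-0.87 ± 0.26, edgeR adjusted p = 0.0547). With A-485 added, Stat2 was not called (-0.64 ± 0.20, edgeR adjusted p = 0.138). How many genes of this list were called with an inhibitor added is not reported here. Reads of Irf9 can also count for Rnf31, with which it shares 123 exon bases. In the same way Irf7, Ifi203 and Myd88 share 45, 37 and 290 exon bases with Phrf1, Mndal and Acaa1a. Irf1 and Tlr3 share 135 and 381 exon bases with Gm17334 and Gm45542. Gm17334 had 0 counts over all libraries, and Gm45542 has no entry in the count table.

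Of 35 other antiviral effectors, 29 were tested and 12 were called higher with IFNγ, with a median of 1.33. The largest changes were those of Ifit3b, given above, Ifit1bl1, a relative of Ifit1, Ifi203 (3.76 ± 0.27, edgeR adjusted p = 2.45e-07) and Trim21, a ubiquitin ligase that binds antibodies in the cell (3.51 ± 0.30, edgeR adjusted p = 1.32e-06). Ifit1bl1 is given by its counts, 2, 2 and 3 with DMSO and 75, 36 and 65 with IFNγ, since a fold against so few is not well determined. With A-241 added, 6 of the 29 were called lower and 1 higher, with a median of -0.69. With A-485 added 1 was called lower, with a median of -0.29. Ifi203 was lower with A-241 (-2.73 ± 0.26, edgeR adjusted p = 3.81e-06), and Trim21 was not called (-0.85 ± 0.24, edgeR adjusted p = 0.040).

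Of 15 sensors of RNA and DNA and their adaptors, 12 were tested and 3 were called higher with IFNγ, with a median of 0.50. They were the adaptor Myd88 (1.96 ± 0.26, edgeR adjusted p = 0.000237), Tmem173, which encodes STING (1.29 ± 0.20, edgeR adjusted p = 0.00136), and Tlr3, a receptor of viral RNA in endosomes (1.23 ± 0.20, edgeR adjusted p = 0.00159). With A-241 added, Tmem173 (-1.03 ± 0.20, edgeR adjusted p = 0.00388) and Tlr3 (-1.39 ± 0.20, edgeR adjusted p = 0.000261) were lower, and with A-485 added 0 of the 12 were called by edgeR (0 at an unadjusted p under 0.05). Without IFNγ, A-241 also lowered Tlr3 (-0.97 ± 0.21, edgeR adjusted p = 0.00741), while Tmem173 was not called (-0.27 ± 0.21). In the presence of A-241 their responses to IFNγ were 0.81 ± 0.21 for Tlr3 and 0.53 ± 0.21 for Tmem173, neither called. Of 5 genes of ISG15 conjugation 3 were tested. Ube2l6, the conjugating enzyme, was the 1 called higher with IFNγ (2.48 ± 0.33, edgeR adjusted p = 0.000232). With either inhibitor added, 0 of the 3 were called by edgeR (1 at an unadjusted p under 0.05 in each case). As a yardstick, all 17 tested of 20 genes typical of the IFNγ response were higher with IFNγ, with a median of 5.38 (5.05 with the genes near 0 counts in DMSO at their bounds). With A-241 added 14 of these 17 were called lower, with a median of -2.43, and with A-485 added 5 were, with a median of -1.21.

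The genes whose mean pattern over the 6 conditions was most like the median of the 10 genes were Nmi, Parp12, Rtp4, Myd88 and Rbm47. Their root mean square distance from that median, over the 5 log2 changes against DMSO, was 0.12, 0.18, 0.20, 0.20 and 0.21. The median itself was 0.02 with A-241, 0.36 with A-485, 1.81 with IFNγ, 0.77 with IFNy+A-241 and 1.28 with IFNy+A-485. The 10 genes were spread widely around it, with distances from 0.26 for Rnf213 and 0.30 for Isg15 to 1.95 for Ifit3 and 2.25 for Ifit1. These distances share 1 set of DMSO libraries, and no test was made of them.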

How the data were processed

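The authors demultiplexed reads with bcl2fastq 2.17.1.14, checked them with FastQC 0.11.5, trimmed them with cutadapt 1.7 and aligned them with HISAT2 2.1.0 to GRCm38, and assigned them to exons with featureCounts, with reads that overlap several genes counted for each. What was deposited by the authors for the 18 libraries are unnormalised counts of each gene, and no strand setting was found in the sources used here, so overlapping genes are uncertain. The authors' own differential test was limma with voom. Here edgeR 4.0.16 in R 4.3.3 was used on all libraries with TMM factors, filterByExpr and 1 coefficient per condition. Genes passing the filter numbered 11964 of 43629. CPM were TMM-scaled, and log2 CPM used a prior count of 2. The SE was the log2 fold change divided by the square root of F. With 3417167 to 7856830 counts a library, 3 counts correspond to 0.382 to 0.878 CPM by total counts without TMM factors. This allows for counting error alone, and the bounds of genes near 0 counts rest on these unscaled values. In the TMM-scaled CPM of the levels, 3 counts in DMSO replicate 3 are 1.03 CPM. Libraries of the same condition all differed pairwise beyond sampling noise (chi-square per degree of freedom 2.18 to 139), so all 18 were kept apart. Promoters were those of RefSeq (GRCm38.p6), and gene positions those of GENCODE vM21. Alternatives were DESeq2 1.42.0, limma-voom (limma 3.58.1), other filters and scalings, 2 surrogate variables (sva 3.50.0), a replicate block, only the groups compared, and left-out libraries. The 10 genes and the lists were chosen with earlier results of these data known, so no count is adjusted over a list alone. Outside the 10 genes, the genes named were Stat2, Irf9, Irf1, Irf7 and Ifnb1, up to 4 of the largest called changes of a list with IFNγ, the 5 nearest patterns and genes that overlap with or share reads with a named one, while Ifna2 and Ifna4 were named after their values were seen. Some genes of the lists are not reported here by name.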

Additional observations from a re-analysis of the deposited data

How the results depend on the processing

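Counts of the 10 genes called changed by more than 1.5 times as follows, and the cause was not tested except that comparing only the groups concerned leaves fewer libraries. IFNγ against DMSO gave 2 genes higher instead of 8 when only the groups compared were fitted. A-241 against DMSO gave 1 higher instead of 0 with upper-quartile factors, with 2 surrogate variables, without DMSO replicate 3 and IFNγ replicate 2 and at an adjusted p under 0.05, and for lower instead of 0 gave 1 with DESeq2, 1 with surrogate variables, 1 without those libraries, 2 at an adjusted p under 0.05 and 0 to 1 without any single library. A-485 against DMSO gave 0 higher instead of 1 with limma-voom, no filter, total counts, upper-quartile factors, the replicate block, only the groups compared, and without any single library (0 to 0). A-241 against A-485 gave for lower instead of 0 1 with DESeq2, 1 with only those groups, 2 with surrogate variables, 1 without the 2 libraries and 2 at an adjusted p under 0.05. IFNy+A-241 against IFNγ gave 7 lower instead of 4 with DESeq2 and at an adjusted p under 0.05. IFNy+A-485 against IFNγ gave 1 lower instead of 0 with surrogate variables. IFNy+A-241 against IFNy+A-485 gave 5 lower instead of 3 with DESeq2, only those groups, surrogate variables, without the 2 libraries and at an adjusted p under 0.05, and 1 without any single library. Total counts gave 2 there, with Rsad2 and Oasl2 lost (edgeR adjusted p = 0.0101 and 0.0316) and Ifit2 gained (0.00719). IFNy+A-241 against A-241 gave 2 higher instead of 1 with DESeq2, no filter, total counts, only those groups, without the 2 libraries and at an adjusted p under 0.05, and 3 with surrogate variables. IFNy+A-485 against A-485 gave 3 higher instead of 5 with the replicate block, 10 with surrogate variables, and 3 to 4 without any single library. The interaction of A-241 gave for lower instead of 0 2 with DESeq2 and 1 each with surrogate variables, without the 2 libraries and at an adjusted p under 0.05.

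Over 760 values of single genes under the alternatives, 630 kept their direction and their side of the threshold, 56 lost a call, 74 gained one and 0 called values reversed, while 43 of 1460 values that were not called changed sign. Of 60 levels, 1 moved by more than the spread between libraries with a prior count of 0.5, Ifit2 with IFNy+A-241 (2.64 log2 CPM). Scaling by total counts shifted the median of all genes to 0.12 for A-241 against DMSO and to 0.13 for IFNy+A-241 against IFNγ. The replicate block was not treated as a pairing, because libraries with the same number did not deviate together (r from -0.80 to 0.48, median -0.018, over 45 pairs), and only 3 of 18 libraries correlated best with their own number. With the block, 7 genes instead of 8 were called higher with IFNγ and 2 instead of 3 lower with IFNy+A-241 than with IFNy+A-485. Depth limits Ifit3, Rsad2, Oasl2 and Ifit1 in resting cells, where a library held as few as 1, 5, 7 and 9 of their counts.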
